A study of Mus musculus with 7 samples.

Results

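The cells described here were 187 somatic cells of the mouse gonad at E11.5 (embryonic day, E), chosen from their transcripts as carrying at least 2 molecules of Wnt6. A cell qualified when at least 1000 genes were detected, Wnt6 had at least 2 unique molecular identifiers (UMIs, each standing for 1 captured transcript), Upk3b had none and the germ cell genes Dazl and Pou5f1 had at most 1 between them. The library held 8293 cell barcodes, 7972 of them with at least 1000 genes. The Wnt6 cells made up 2.35% of those 7972 (exact binomial 95% interval 2.02 to 2.70%). Of 230 cells with enough Wnt6, 43 were set aside for Upk3b, a gene of the coelomic and ovarian surface epithelium, and none of the others for germ cell genes. In all 7 libraries 44006 cells had at least 1000 genes. The same rule picked 1299 cells in the E12.5 library, 3185 in that of E14.5 and 2846 in that of E16.5. Of the last 3 libraries, E18.5 gave 1064, postnatal day (P) 1 gave 1053 and P5 gave 1261.

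The study profiled developing C57BL/6J wild-type gonads and ovaries by droplet single-cell RNA sequencing (10x Chromium, v2 chemistry), with 1 library of pooled organs at each age and no treatment. The E11.5 library is labelled as gonad with no sex given, and the 6 later libraries as ovary. Trypsin treatment lasted 20 min for the first 2 ages and was longer for all later ones. With 1 library per age, cells are not replicates, so no value below carries a p-value. Levels are CPM, the gene's summed UMIs over the summed UMIs of the same cells, times 1000000, intervals are exact 95% intervals and cover counting error only, and every contrast between the Wnt6 cells and other cells is a description, because the same cells and genes were used to choose them.

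At E11.5 the gonad is a thickening of the coelomic epithelium beside the mesonephros, and its supporting precursors can still become Sertoli cells in a testis or pregranulosa cells in an ovary. Sry and then Sox9 direct the testis course, whereas Wnt4, Rspo1 and later Foxl2 belong to the ovarian one. Wnt6 is a secreted Wnt ligand, Kitl is the ligand that sustains Kit-bearing germ cells, Runx1 is a transcription factor of early supporting cells, and Kctd14 encodes a protein with a tetramerisation domain.

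The label's markers stood above the rest of the library, but all 4 were found together in only a part of the cells. Kctd14 (chr7:97451323-97459557, mm10) had 3427 CPM in the Wnt6 cells (3349 to 3506) against 45.4 CPM in the other 7785 cells, a ratio of 75.5. Its UMIs per cell ran from 0 through a median of 32 to 141. Kitl (chr10:100015630-100100416) had 250.2 CPM against 18.3 CPM, a ratio of 13.6 (12.4 to 15.1), with a median of 2 UMIs and a highest of 18. Runx1 (chr16:92601466-92826149) had 102 CPM against 7.30 CPM, a ratio of 13.9 (11.9 to 16.3), with a median of 1 UMI and a highest of 9. Wnt6 itself (chr1:74771892-74785322), which the rule used, had between 2 and 16 UMIs per cell with a median of 4.

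At least 1 Kctd14 UMI was seen in 84.5% of the Wnt6 cells, at least 1 Kitl UMI in 73.8% and at least 1 Runx1 UMI in 54.0%. All 3 were present together in 81 cells (43.3%), and 15 cells had none. Depth is part of these shares, since the Wnt6 cells had a median of 11188 UMIs and the rest 10252. After each cell was thinned to 5000 UMIs, 41 of 171 Wnt6 cells (24.0%) still had all 3 markers, compared with 17 of 6756 other cells. Red blood cells were used as a gauge of the free RNA in the droplets. Whether they lack all 3 genes, Runx1 among them, was not tested. Among 252 erythroid cells, with a median of 21797 UMIs, Kctd14 had a UMI in 6.75%, Kitl in 2.38% and Runx1 in 3.97%, and none had all 3. In the erythroid cells, Kctd14 never exceeded 1 UMI.

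**Figure D1:**
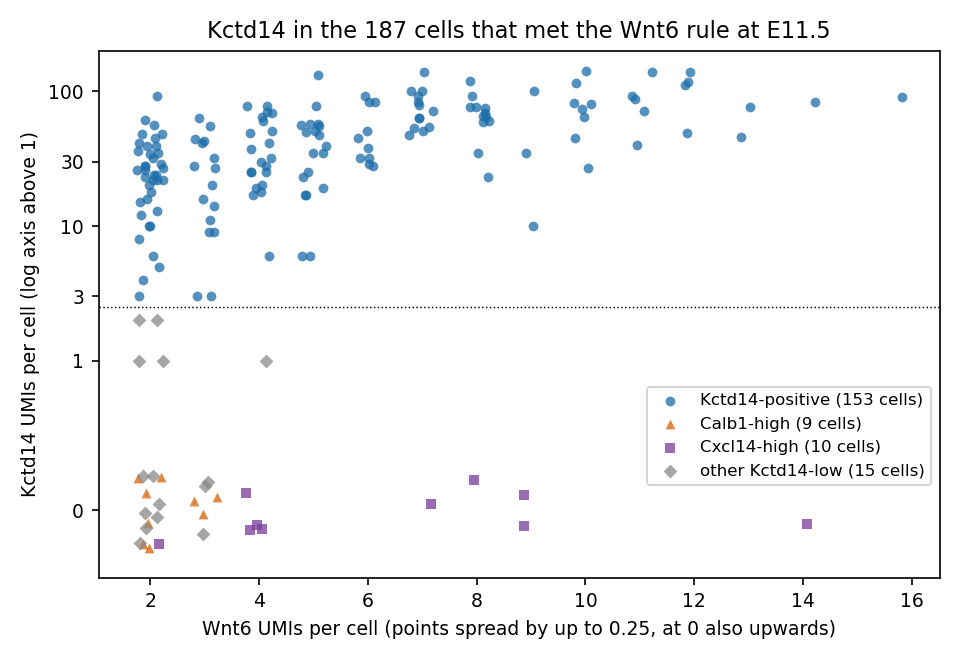
Each point is 1 of the 187 cells that met the Wnt6 rule at E11.5, placed by its Wnt6 UMIs (x axis, spread sideways) and its Kctd14 UMIs (y axis, log scale above 1), with the dotted line at the split of 3 Kctd14 UMIs. The 153 Kctd14-positive cells reach 141 UMIs, while the Calb1-high and Cxcl14-high cells, which were taken from the Kctd14-low cells, sit at 0 Kctd14 UMIs.

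Kctd14 divided the cells into 2 uneven sets. Of the 187 cells, 124 had 20 or more Kctd14 UMIs, 29 had 3 to 19, 5 had 1 or 2 and 29 had none, as the plot of Kctd14 against Wnt6 shows. The 153 cells with at least 3 UMIs are called Kctd14-positive and the other 34 Kctd14-low; the split was chosen after these values were seen. Kctd14 is itself one of the label's markers, so its level in the first set follows from the split. That set also had Kitl, Runx1, Amhr2 and Nr5a1, which the split did not use. In the second set 19 cells, described next, had no UMI of Amhr2, Gata4 or Nr5a1, whereas 15 cells had them in part. The Kctd14-low cells are named here only by their leading genes.

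Among the Kctd14-low cells, 9 carried at least 5 UMIs of Calb1, a calcium-binding protein of epithelial ducts. In these 9 cells, all XX-type by the transcripts described below, Calb1 reached 2589 CPM, the epithelial adhesion gene Epcam 792 CPM and Gata3, a transcription factor of the nephric duct, 507 CPM. Pax2, Ret and Lhx1, which pattern the nephric duct and tubules, had 82.9, 73.7 and 55.3 CPM, and Wt1 and Wnt4 had no UMI. Kitl was nevertheless 267 CPM in them, close to the 279.5 CPM of the Kctd14-positive cells. A further 10 cells, also all XX-type, carried at least 5 UMIs of Cxcl14, a chemokine, which stood at 3273 CPM. They had Gjb2, a connexin, at 727 CPM, Tfap2b at 472 CPM, Sostdc1 at 403 CPM and the basal keratin Krt14 at 393 CPM, with 639 CPM of Wnt6 and only 19.7 CPM of Kitl. The remaining 15 cells were the only Kctd14-low cells with UMIs of Amhr2, Gata4 or Nr5a1. They held all 23 Amhr2 UMIs of the Kctd14-low cells, in 7 cells, which gave 145 CPM (91.9 to 218), against 277 CPM in the Kctd14-positive cells and 10.0 CPM in the rest of the library. Gata4 was 56.7 CPM (25.9 to 108) in them, against 172 CPM and 16.4 CPM, Nr5a1 had 4 UMIs and Kitl was also 56.7 CPM. Wt1 stood at 485 CPM and Wnt4 at 164 CPM, and their summed mesenchymal list stood at 1091 CPM, against 382 CPM in the Kctd14-positive cells.

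At least 5 Calb1 UMIs were also found in 4 Kctd14-positive cells, and at least 5 Cxcl14 UMIs in none. Because the Kctd14-low cells pull several averages, the values of the Kctd14-positive cells are given as well. In the Kctd14-positive cells Calb1 was 34.2 CPM, Cxcl14 was a single UMI (0.561 CPM), and Gjb2 and Krt14 had none. The 14 mesonephric tubule and duct genes summed to 154 CPM in them, below the 170 CPM of all other cells of the library. Lhx1, Cdh16 and Sim1 were among those at 0, and Krt8 was the most abundant. Of 7 with enough counts, Pax8 was at least 2-fold higher than in the rest and Gata3, Epcam and Cldn7 at least 2-fold lower. The shares of all genes were 11.6% and 11.7%. Over all 187 cells the same list summed to 427 CPM, with Calb1 on top. A UMI of Pax2, Pax8 or Lhx1 was found in 34 of the 187 cells, and 10 of these were Kctd14-low. Of 8482 genes compared between the Kctd14-low and the Kctd14-positive cells, 637 (7.51%) were at least 2-fold higher in the low cells and 1140 (13.4%) at least 2-fold lower. Akr1cl, Ifitm1, Lgals7 and Gadd45g led the lower side, with Akr1cl at 3 UMIs in the 34 cells against 1629 UMIs in the 153.

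Over all cells the label's markers were higher in groups with more Wnt6 UMIs, and the share of cells with at least 3 Kctd14 UMIs was higher in every step but the last. Among cells free of Upk3b and germ cell genes, those just outside the rule, with 1 Wnt6 UMI (157 cells), had 930 CPM of Kctd14, and those just inside, with 2 UMIs (56 cells), had 1853 CPM. Cells with 5 to 8 Wnt6 UMIs had 4377 CPM and cells with 9 or more had 4850 CPM, whereas 6621 cells with none had 17.4 CPM. That share was 0.846% at 0 Wnt6 UMIs, 41.4% at 1, 67.9% at 2, 77.1% at 3 or 4, 96.4% at 5 to 8 and 88.9% at 9 or more. Kitl over all cells went from 16.3 CPM at 0 Wnt6 UMIs through 96.6, 170, 243 and 292 CPM to 298 CPM in the top group. Runx1 went from 7.10 CPM to 144 CPM over the same groups. Within the cells with at least 3 Kctd14 UMIs the levels were not higher just inside the rule than just outside it. In them Kctd14 was 3371 CPM at 1 Wnt6 UMI (65 cells) and 2819 CPM at 2 (38 cells), Kitl 271 CPM and 191 CPM, and Runx1 105 CPM and 80.7 CPM. Above the edge their Kctd14 stood at 3488, 4545 and 5352 CPM in the next 3 groups and Kitl at 282, 301 and 327 CPM. Depth followed this order only in part. Over all cells, the median cell had 10141 UMIs at 0 Wnt6 UMIs, 7556 at 1, 8435 at 2 and 12399 at 9 or more. In the cells with at least 3 Kctd14 UMIs it had 5205 UMIs at 1 Wnt6 UMI and 8757 at 2. The part of depth in these levels was not tested.

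Cells with Kctd14 were also left outside the rule. Another 155 cells had at least 3 Kctd14 UMIs, of which 65 had a single Wnt6 UMI, 56 had neither Wnt6 nor Upk3b, and 16 with and 17 without the Wnt6 minimum had Upk3b. The rule therefore took 49.7% of the 308 cells with at least 3 Kctd14 UMIs. The 56 cells without a Wnt6 or Upk3b UMI had a median of 7662 UMIs, with Kctd14 at 1831 CPM and Amhr2 at 160 CPM. Lhx9, a homeobox gene of the early gonad, was 312 CPM in them, against 227 CPM in the Kctd14-positive Wnt6 cells.

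Compared with the rest of the library, 1142 of 10784 genes with enough counts (10.6%) were at least 2-fold higher in the Wnt6 cells and 1006 (9.33%) at least 2-fold lower, around a median ratio of 1.02. For the Kctd14-positive cells alone the counts were 1248 (11.6%) and 1258 (11.7%). Kctd14 led the ranking, followed by Akr1cl, an aldo-keto reductase relative, with 759 CPM against 14.0 CPM, and Lgals7, a galectin, with 610 CPM against 11.49 CPM. Ifitm1, an interferon-induced membrane protein, had 1714 CPM against 87.4 CPM. Gadd45g, a stress sensor that is needed upstream of Sry in the mouse gonad, had 643 CPM against 46.3 CPM. Several of the next names encode metabolic enzymes, which were not a list of their own and were not counted as a group. Ldhb, a lactate dehydrogenase subunit, had 3039 CPM against 304 CPM, Acaa2, a mitochondrial thiolase, 512 CPM against 55.1 CPM, and Asns, asparagine synthetase, 353 CPM against 40.8 CPM. Pank1, which starts coenzyme A synthesis, had 268 CPM against 26.7 CPM, and the glutathione transferase Gstm1 275 CPM against 28.8 CPM. The carboxypeptidase gene Cpa1 was at 169 CPM against 4.78 CPM and the lipase gene Pnlip was at 137 CPM against 2.75 CPM. Others of the 25 leading genes were Bmyc, Actr6, Lor, Fkbp9, Klhl23, Bst2, AW551984, Laptm4b and Etnk2, with ratios of 8.13 to 30.7. Cxcl14 also ranked among them at 156 CPM, and all but 1 of its 335 UMIs came from Kctd14-low cells.

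At the other end stood genes of blood and of mesenchyme. The erythroid genes Car2, Alas2 and Hemgn were among the 15 lowest, with Alas2 at 1.40 CPM against 56.7 CPM. Haemoglobin transcripts summed to 954 CPM in the Wnt6 cells and to values between 812 and 2326 CPM in the other non-erythroid classes of the library. Foxf1 and Hand1, transcription factors of lateral plate mesenchyme, had 4.65 CPM against 89.7 CPM and 2.79 CPM against 59.1 CPM. Prrx1 had 11.2 CPM against 93.2 CPM, the limb gene Pitx1 0.930 CPM against 45.9 CPM and the fibrillar collagen Col3a1 81.4 CPM against 296.7 CPM. Every one of the 13 mesenchymal genes was at least 2-fold lower (median ratio 0.274), against 9.33% of all genes, and the list summed to 418 CPM against 1316 CPM. Others of the lowest genes were Crabp1, Mt1, Ptn, Itm2a, Mab21l2 and Vcan.

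Transcription factors of the gonadal ridge were not uniformly high. Of 15 such genes, 7 were at least 2-fold higher in the Wnt6 cells and 4 at least 2-fold lower, against 10.6% and 9.33% of all genes. Nr5a1, the nuclear receptor that drives gonadal and adrenal development, had 76.3 CPM against 2.34 CPM, a ratio of 32.6 (26.4 to 40.1), and its repressor partner Nr0b1 had 91.1 CPM against 2.95 CPM. Wt1, needed for the gonad to form and survive, had 618 CPM against 145 CPM and was detected in 89.3% of the cells. Gata4 had 146 CPM against 16.4 CPM, Lhx9 193 CPM against 38.1 CPM, Emx2 220 CPM against 45.5 CPM and the Gata4 cofactor Zfpm2 30.2 CPM against 6.30 CPM. Below the rest were Cbx2 (13.9 CPM against 31.5 CPM), Tcf21 (26.5 CPM against 67.4 CPM), Lhx2 (1 UMI in the 187 cells) and Tbx18 (7.90 CPM against 28.8 CPM). The median ratio of the list was 0.729, against 1.02 over all genes, whereas its summed level was 2396 CPM against 2198 CPM. The rest is a mixed background, since 3564 of its cells (44.7% of all E11.5 cells with at least 1000 genes) carried collagen transcripts and no Gata4.

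The list of inhibin, activin and anti-Müllerian hormone genes held several of the higher genes. Of its 11 genes 8 had enough counts, and 5 of them were at least 2-fold higher and 1, Tgfbr3, at least 2-fold lower, against 10.6% and 9.33% of all genes, with a median ratio of 2.96 and a summed level of 599 CPM against 155 CPM. Amhr2 (chr15:102445367-102454633), the receptor for anti-Müllerian hormone, had 240.4 CPM (220.1 to 262.1) against 10.0 CPM, a ratio of 24.0 (21.5 to 26.8). It had a UMI in 86.3% of the Kctd14-positive cells and in 1.98% of the erythroid cells. Inha, the inhibin alpha subunit, had 137 CPM against 4.48 CPM, and Inhbb, the beta B subunit it pairs with, 64.6 CPM against 1.57 CPM. Fst, an extracellular activin antagonist, had 73.9 CPM against 22.5 CPM. The hormone gene Amh itself and Inhba, the beta A subunit of activin, had no UMI in the Wnt6 cells.

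The region before the start of Amhr2 is shown because Amhr2 was among the leading genes and its upstream region holds letters that Nr5a1 and Gata4, both high in the same cells, are known to bind. The 250 bases before the RefSeq start (GRCm38.p6, plus strand, chr15:102445117-102445366) are written 5′ to 3′, with the first run of capitals AAGGTCA, a binding sequence of Nr5a1, and the second TTATCA, which is the GATA motif TGATAA on the opposite strand.

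Amhr2: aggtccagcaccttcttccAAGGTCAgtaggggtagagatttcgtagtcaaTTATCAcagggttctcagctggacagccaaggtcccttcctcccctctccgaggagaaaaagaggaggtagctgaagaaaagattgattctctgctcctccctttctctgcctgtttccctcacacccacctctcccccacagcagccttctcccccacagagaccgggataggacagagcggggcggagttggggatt

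The first match begins 231 bases and the second 199 bases before the start. On either strand, AAGGTCA occurred in such windows of 4.70% of 27025 genes and in 2 of the 22 windows found for the 25 leading genes, those of Amhr2 and Cxcl14. Nearly all Cxcl14 UMIs came from Kctd14-low cells, and the Cxcl14-high cells had no UMI of Nr5a1. TGATAA occurred in 9.21% of all genes and in 2 of the 22 (Amhr2 and AW551984), and AGATAA, another GATA motif, in 11.4% and in 3 of the 22 (Akr1cl, Bmyc and Pnlip). A match in this window is a description of the letters, and binding was not measured.

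**Figure D2:**
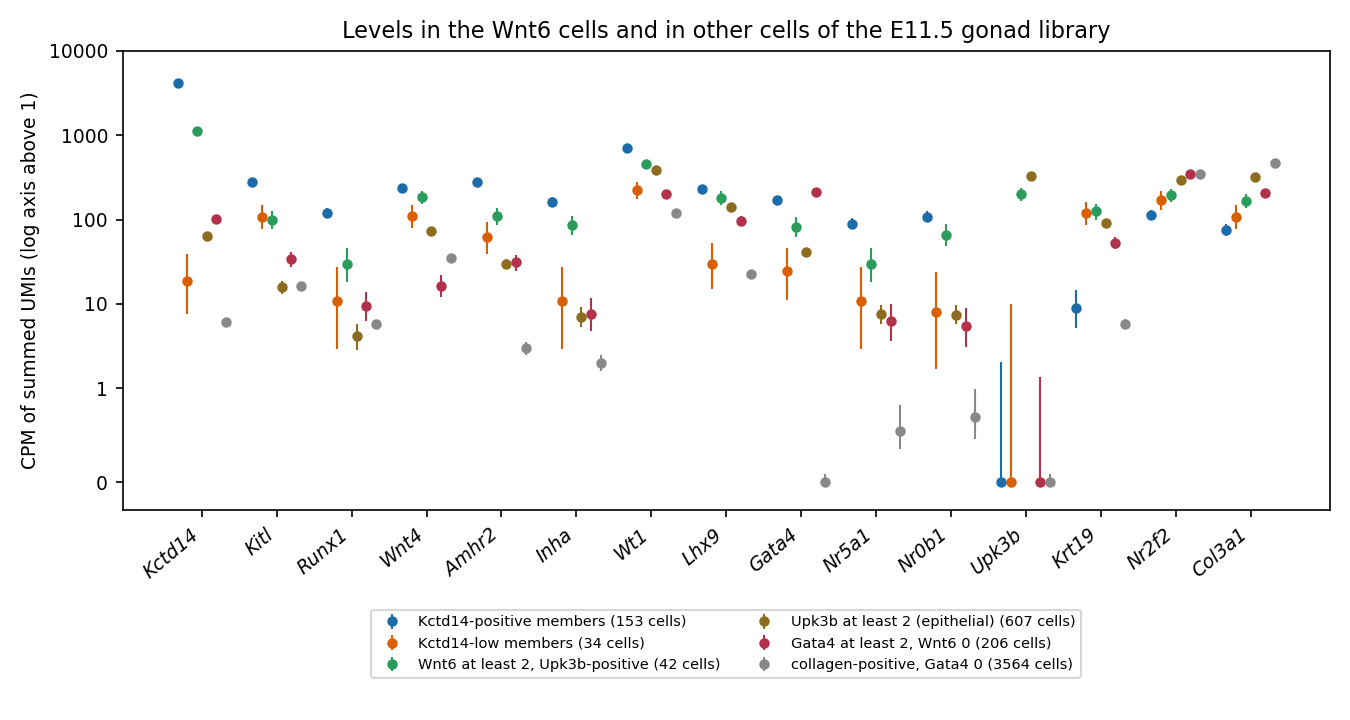
CPM of summed UMIs (y axis, log scale above 1) of 15 genes (x axis) in 6 sets of E11.5 cells, with bars for exact Poisson 95% intervals of counting error. Kitl, Runx1, Amhr2, Inha, Nr5a1 and Nr0b1 are highest in the 153 Kctd14-positive cells, as is Kctd14, by which they were split off, and Nr2f2 and Col3a1 are lowest in them.

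The label's markers and several gonadal genes were also higher in the Wnt6 cells than in Gata4-bearing cells without Wnt6. The 206 cells with at least 2 Gata4 UMIs and no Wnt6 or Upk3b had a similar depth (median 11606 UMIs), and also held transcripts of gut and liver such as Rbp4 (603 CPM), Onecut2 (194 CPM) and Ttr (107 CPM), so they were not all gonadal. Of 10726 genes, 800 (7.46%) were at least 2-fold higher in the Wnt6 cells and 1202 (11.2%) at least 2-fold lower. Wnt4 had 214 CPM against 16.49 CPM, a ratio of 13.0 (9.56 to 18.1), and Nr5a1 had a ratio of 12.2 (7.42 to 21.5). Kitl and Runx1 were 7.42 and 10.7 times as high, and Lgals7, Akr1cl and Cpa1 between 28.4 and 46.1 times as high. Ptn, a heparin-binding growth factor, was 150 CPM against 1207 CPM and Itm2a 65.1 CPM against 548 CPM. The plot of levels by class also shows 607 epithelial cells, with at least 2 Upk3b UMIs, in which Kctd14 was 63.1 CPM and Lhx9 was 142 CPM.

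Genes of both the Sertoli and the pregranulosa pathway were represented in the Wnt6 cells. Of 20 Sertoli pathway genes 13 had enough counts, and 9 of them were at least 2-fold higher in the Wnt6 cells and 1, Map3k4, at least 2-fold lower, against 10.6% and 9.33% of all genes. Its median ratio was 7.42, and it summed to 1154 CPM against 216 CPM, with Gadd45g contributing the most. Dmrt1, a transcription factor kept in adult Sertoli cells, had 49.8 CPM against 0.983 CPM, Cyp26b1, which degrades retinoic acid, 21.4 CPM against 2.88 CPM and Mro 14.4 CPM against 0.950 CPM. Sry had no UMI anywhere in the library and Amh none in the Wnt6 cells. Sox9, which is also made by mesenchyme and cartilage, had 106 CPM against 68.3 CPM. Of 18 pregranulosa pathway genes 14 had enough counts, and 9 were at least 2-fold higher and 2, Irx3 and Irx5, at least 2-fold lower, against the same shares of all genes (10.6% and 9.33%), with a median ratio of 3.36 and a sum of 971 CPM against 531 CPM. Wnt4 had 214 CPM against 35.7 CPM, the Wnt potentiator Rspo1 83.2 CPM against 40.3 CPM, Bmp2 43.3 CPM against 6.32 CPM and Lgr5, a receptor for R-spondins, 14.4 CPM against 1.55 CPM. Foxl2 was barely present, with 11 UMIs in 8 of the 187 cells.

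Signalling lists are read against the 10.6% of all genes that were at least 2-fold higher and the 9.33% that were at least 2-fold lower. In 19 Wnt ligand genes, of which 6 had enough counts beside Wnt6, Wnt4 and Wnt9a were at least 2-fold higher and Wnt2, Wnt5a and Wnt16 at least 2-fold lower. In the list of Wnt targets and inhibitors 13 of 20 genes had enough counts, and 3 were at least 2-fold higher (Lef1, Sp5 and Kremen1) and 4 at least 2-fold lower, with a median ratio of 1.10. The nuclear effector Lef1 had 60.5 CPM against 25.8 CPM and Sp5, a direct Wnt target, 11.2 CPM against 3.58 CPM. Kremen1, a receptor for the Dkk inhibitors, had 6.98 CPM against 3.05 CPM, and the 4 lower genes were Sfrp1, Sfrp2, Frzb and Dkk2, which encode secreted Wnt inhibitors. In the Kctd14-positive cells alone the same 3 of 13 were higher and 6 lower, with Notum and Dkk1 added. The median ratio of the list was 0.524 in them, and 11.6% and 11.7% of all genes were higher and lower. In the list of Wnt secretion and receptor genes, 18 of 25 had enough counts, and 4 were at least 2-fold higher (Fzd6, Rspo1, Lgr4 and Lgr5) and 5 at least 2-fold lower (Fzd1, Fzd2, Fzd4, Ror2 and Rspo3). Its median ratio was 0.805, with Lgr4 at 146 CPM against 33.7 CPM and Rspo3 at 5.12 CPM against 54.6 CPM. Of 7 Hedgehog genes with enough counts none was at least 2-fold higher and 5 were at least 2-fold lower (median ratio 0.376). Of 13 retinoic acid genes with enough counts 3 were higher by that measure (Aldh1a1, Aldh1a3 and Cyp26b1) and 7 lower, with the retinoid-binding gene Crabp1 at 29.3 CPM against 218 CPM. Of 14 BMP and Id genes with enough counts Bmp2 was higher and 5 were lower, and of 10 Notch genes Hey1 was higher (73.0 CPM against 17.1 CPM) and 3 were lower. For these 2 lists the higher count is near the share over all genes. Of 15 junction genes with enough counts 5 were higher, among them the connexin Gja1 (178 CPM against 82.6 CPM), and 3 lower. In the Kctd14-positive cells alone 3 of 13 were higher (Gja1, Cldn11 and F11r) and 6 lower, among them Epcam, Cldn6 and Cldn7, with Gjb2 at 0, against 11.6% and 11.7% of all genes. No gene was at least 2-fold higher among the 14 FGF and insulin receptor genes (3 lower), 14 basement membrane genes (4 lower) and 6 neural genes (5 lower) with enough counts. Of 12 dissociation-response genes none passed 2-fold in either direction, and their median ratio was 1.07.

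Steroid synthesis genes appeared in part of the cells. Cyp11a1, which makes pregnenolone from cholesterol, had 72.1 CPM against 1.14 CPM and a UMI in 58 of the 187 cells, 57 of them Kctd14-positive. Star, which carries cholesterol into mitochondria, had 8.84 CPM against 1.40 CPM. In the interstitial and steroidogenic list, where 6 of 12 genes had enough counts, these 2 were at least 2-fold higher, Ptch1 and Gli1 at least 2-fold lower (10.6% and 9.33% of all genes) and 2 had no UMI, with Nr2f1 the most abundant and a sum of 212 CPM against 255 CPM.

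Markers of other lineages were counted in the same cells. Endothelial genes summed to 29.3 CPM against 87.9 CPM, led by Egfl7, with Cdh5, Tie1, Tek, Esam and Flt1 at 0. Immune genes summed to 17.2 CPM against 118 CPM, led by Tyrobp, with C1qb and C1qc at 0. Coelomic epithelium genes summed to 997 CPM against 508 CPM, of which Wt1 made up the most. Upk3b, by the rule, and Msln were at 0, and Krt19 was 27.9 CPM against 19.1 CPM in the rest, with 8.98 CPM in the Kctd14-positive cells alone. Germ cell genes summed to 155 CPM against 89.6 CPM, led by Ifitm3, and of 6 with enough counts Utf1, Dnd1 and Ifitm3 were at least 2-fold higher and Dppa3 and Sox2 at least 2-fold lower, against 10.6% and 9.33% of all genes, with Nanog at 0. In the Kctd14-positive cells Utf1 and Dnd1 were at least 2-fold higher and Dppa3, Sox2 and Kit at least 2-fold lower, against 11.6% and 11.7%, while Ifitm3 had a ratio of 1.93 (1.63 to 2.28). Utf1, a pluripotency factor of germ cells, had 37.7 CPM against 6.64 CPM, and Dppa3 had 1 UMI. Counted per cell, 3 or more coelomic epithelium genes were found in 110 of the 187 cells (58.8%, against 25.5% of the rest), 3 or more mesenchymal genes in 52 (27.8% against 77.9%) and 3 or more mesonephric genes in 18 (9.63% against 5.46%). For germ cell genes this was 6 cells (3.21% against 0.963%), for immune genes 1 cell and for endothelial genes none. Erythroid genes reached 3 in 157 cells (84.0% against 80.1%). Among the Wnt6 cells 6 (3.21%) lay above the 95th percentile of UMIs in the library (24825), and 16 (8.56%) were among the cells with the highest 5% of doublet scores by Scrublet, against 5.22% of all kept cells. The part of doublets in these values was not tested.

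**Figure D3:**
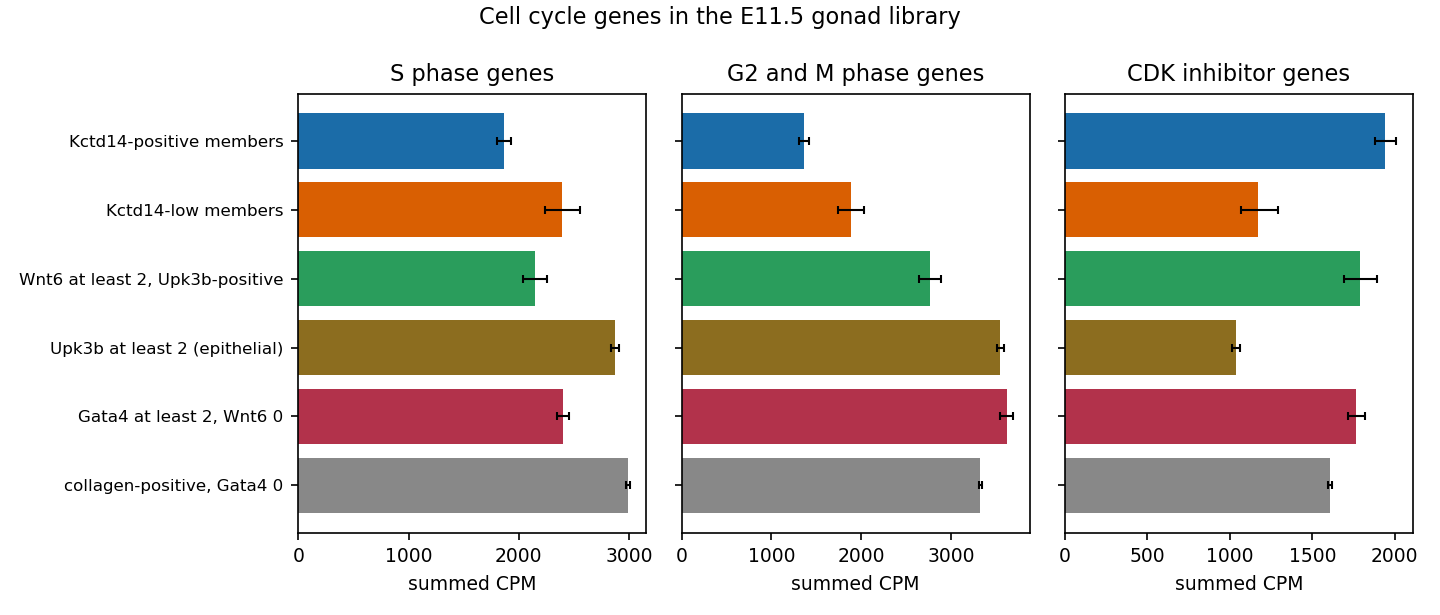
Summed CPM (x axes) of S phase, G2 and M phase, and CDK inhibitor genes in 6 sets of E11.5 cells, with bars for exact Poisson 95% intervals of counting error. The Kctd14-positive cells have the shortest S and G2/M bars and the longest CDK inhibitor bar, at 1864, 1362 and 1944 CPM. Over all Wnt6 cells the CDK inhibitor sum was 1812 CPM against 1581 CPM in the rest, with Cdkn1c the most abundant.

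Most of the Wnt6 cells carried few mitotic transcripts. All 28 genes of G2 and M phase had enough counts, and none was at least 2-fold higher and 23 at least 2-fold lower than in the rest, where 9.33% of all genes were. Their median ratio was 0.450, and their summed level was 1452 CPM against 3114 CPM, a ratio of 0.466 (0.450 to 0.483). Mki67, the standard proliferation marker, had 18.1 CPM against 58.1 CPM, the topoisomerase Top2a 142 CPM against 347 CPM, and the mitotic cyclin Ccnb1 146 CPM against 211 CPM. S phase genes differed less, with 7 of 24 at least 2-fold lower and a summed ratio of 0.695 (0.674 to 0.717). Of the CDK inhibitors, which hold cells out of division, Cdkn1b had 53.5 CPM against 15.6 CPM and Cdkn1a 90.7 CPM against 24.0 CPM, whereas Cdkn1c, abundant throughout the library, had 1646 CPM against 1508 CPM.

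The low mitotic level was uneven among cells. Per cell, the G2 and M phase genes had a median of 261 CPM in the Wnt6 cells, 1835 CPM in the rest and 2441 CPM in the epithelial cells. The 10% of Wnt6 cells with the most held 65.8% of the list's UMIs in them. The same share was 41.9% in the rest and 38.2% in the epithelial cells. Of the Wnt6 cells, 18.2% lay above the median of the rest. The 9 Calb1-high cells had a summed level of 3335 CPM, while the Kctd14-positive cells as a group had 1362 CPM, as the bars by class show.

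Y-linked transcripts and Xist were both found in the E11.5 library, mostly in different cells. A cell is called XY-type here when it had a UMI of Ddx3y, Eif2s3y, Uty or Kdm5d and none of Xist, and XX-type in the opposite case. Among the 187 Wnt6 cells 65 were XY-type, 88 XX-type, 15 had both and 19 neither, so XY-type cells were 42.5% of those with a call (34.5 to 50.7%). Among the Kctd14-positive cells 61 were of each type. In the rest of the library 1873 were XY-type and 4708 XX-type. The Y-linked genes summed to 103 CPM in the Wnt6 cells and 54.2 CPM in the rest.

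**Figure D4:**
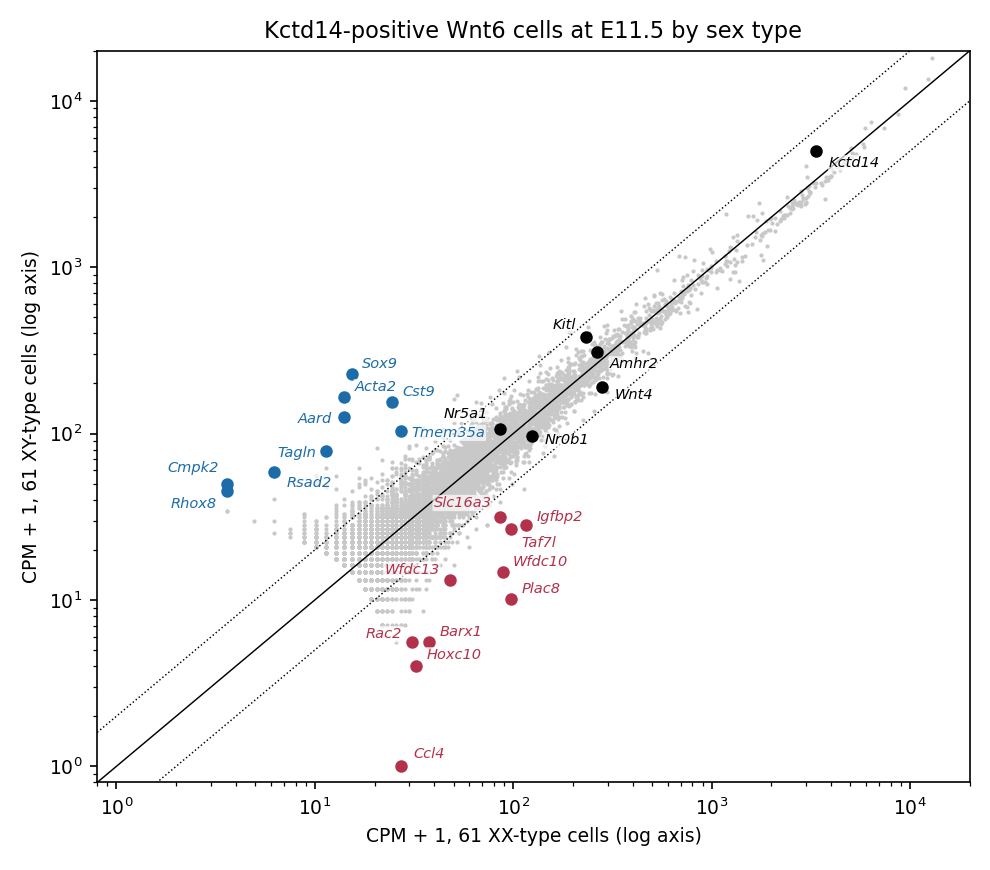
Each point is 1 gene, with its CPM plus 1 in 61 XX-type (x axis) and 61 XY-type (y axis) Kctd14-positive Wnt6 cells, both axes in log scale, the solid line at equality and dotted lines at 2-fold. Named genes among the highest-ranked are blue and those among the lowest red; Sox9, Acta2 and Aard lie above the upper dotted line, and the supporting cell genes in black lie between the dotted lines.

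XY-type and XX-type cells shared most of their transcripts and differed in a small set. In the Kctd14-positive cells, 245 of 7107 genes (3.45%) were at least 2-fold higher in XY-type cells and 182 (2.56%) at least 2-fold lower, with a median ratio of 1.02. Counts were small for many of these genes. Sox9, the main effector of Sry, had 150 UMIs in the 61 XY-type cells and 11 in the 61 XX-type cells, a ratio of 15.9 (8.61 to 32.5). At least 3 Sox9 UMIs were found in 17 XY-type cells and in none of the XX-type cells, whose highest was 2 UMIs against 16. The early Sertoli genes Aard (124 CPM against 13.0 CPM) and Cst9 (153 CPM against 23.5 CPM) were higher in XY-type cells too, as were the contractile genes Acta2 (164 CPM against 13.0 CPM) and Tagln (77.4 CPM against 10.4 CPM). At least 3 UMIs were found in 7 XY-type and 0 XX-type cells for Aard, and in 13 and 2 for Cst9. The highest XY-type cell had 28 UMIs of Aard, and for Cst9 the highest had 20. Other leading names were Rsad2, Cmpk2, Rhox8 and Tmem35a, and Cmpk2 and Rhox8 had 2 UMIs each in XX-type cells.

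All of the 10 genes ranked lowest except Igfbp2 stayed below 100 CPM in XX-type cells. Plac8 had 96.5 CPM against 9.10 CPM in XY-type cells, Wfdc10 87.4 CPM against 13.7 CPM, Igfbp2 115 CPM against 27.3 CPM and the germ cell transcription factor subunit gene Taf7l 96.5 CPM against 25.8 CPM. Ccl4 had 20 UMIs in XX-type and none in XY-type cells, at least 5.73-fold lower in the latter when set against a floor of 3 counts over the group. Barx1, Hoxc10, Wfdc13, Slc16a3 and Rac2 completed the 10 lowest. Bmp2 had 27.3 CPM in XY-type and 73.0 CPM in XX-type cells (ratio 0.374, 0.207 to 0.646), and Wnt4 had 190 CPM and 280 CPM (ratio 0.676, 0.538 to 0.847). Lhx9 had 176 CPM and 297 CPM (ratio 0.592, 0.469 to 0.743), so neither Wnt4 nor Lhx9 passed 2-fold. Foxl2 had 1 UMI in XY-type and 9 UMIs in XX-type cells.

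Lists are read against the 3.45% of all genes that were at least 2-fold higher in XY-type cells and the 2.56% that were at least 2-fold lower. By list, 4 of 11 Sertoli pathway genes were at least 2-fold higher in XY-type cells (Sox9, Fgf9, Aard and Cst9, with Fgf9 on 13 and 7 UMIs) and none at least 2-fold lower, with a median ratio of 1.45. Of 11 pregranulosa genes, 1 was at least 2-fold higher and Bmp2 and Lgr5 at least 2-fold lower. None of 10 gonadal ridge transcription factors passed 2-fold in either direction. Kctd14 was 5027 CPM in XY-type and 3375 CPM in XX-type cells (ratio 1.49, 1.41 to 1.57), and Kitl 378 CPM and 232 CPM (ratio 1.63, 1.34 to 1.98). Amhr2 had a ratio of 1.17 (0.958 to 1.43), Nr5a1 of 1.25 (0.881 to 1.78) and Wt1 of 1.07 (0.945 to 1.21). G2 and M phase genes summed to 1919 CPM in XY-type and 1090 CPM in XX-type cells, a ratio of 1.76 (1.61 to 1.92), with 9 of 24 genes at least 2-fold higher and none at least 2-fold lower. For S phase genes the ratio was 0.909 (0.841 to 0.983). The median per cell of the G2 and M phase genes was 300.1 CPM in XY-type and 243 CPM in XX-type cells, and the 10% of cells with the most in each set held 58.6% and 65.0% of those UMIs. Haemoglobin summed to 1009 and 935 CPM, and mesonephric genes to 95.6 and 145 CPM.

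When all Wnt6 cells were compared instead, 301 of 7898 genes (3.81%) were at least 2-fold higher in XY-type cells and 333 (4.22%) at least 2-fold lower. The genes ranked lowest were then Cxcl14, Calb1, Igfbp2, Epcam, Rprm, Cldn6, Gjb2, Gata3, Plac8 and Npnt. In this comparison the mesonephric list summed to 95.7 CPM in XY-type and 699 CPM in XX-type cells, and the 19 Calb1-high and Cxcl14-high cells were all XX-type. On the higher side Gpr37 and Plac1 took the places of Cmpk2 and Rhox8.

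The rule was then applied to the later libraries, to follow the same definition with age. Before these values, the E12.5 library has to be described, since it is labelled ovary but 7.71% of its cells had a Y-linked UMI, against 0.0102% at E14.5 and 0.205% at E16.5. Of its 1299 rule cells 101 were XY-type. In all 1299 cells Amh, the Sertoli cell hormone, was at 87.3 CPM, and in the XX-type Kctd14-positive ones at 6.03 CPM. Ages are therefore compared in XX-type, Kctd14-positive cells, of which there were 61 at the first age and 1060 at the next. E14.5 and E16.5 had 2954 and 2786 of them, and E18.5, P1 and P5 had 953, 889 and 1115. Age and library cannot be told apart, nor can digestion time from E14.5 on, whereas E11.5 and E12.5 shared the same 20 min. The E11.5 library shared between 2 and 136 cell barcodes with each later one, and at most 4 of those belonged to rule cells at E11.5.

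The share of cells that met the rule was 2.35% at E11.5 and 30.6% at E12.5. It stood at 32.5% by E14.5, with 34.4% for E16.5, 31.3% for E18.5, 21.1% for P1 and 23.7% for P5. These shares also depend on the other cells in each library. At E11.5, 44.7% of the kept cells carried collagen transcripts and no Gata4. The part of tissue composition in the shares was not tested. Among rule cells 81.8% were Kctd14-positive at E11.5, and between 86.3% and 98.6% later.

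**Figure D5:**
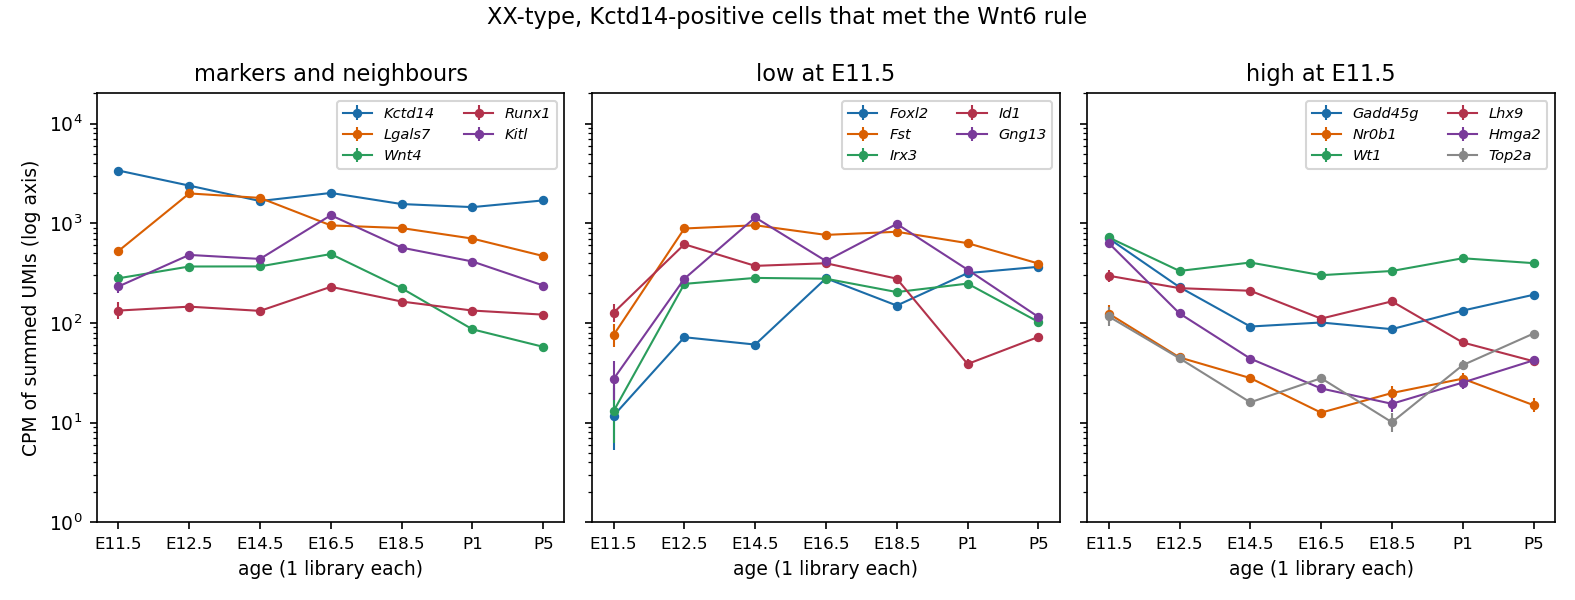
CPM of summed UMIs (y axes, log scale) by age (x axes, 1 library each) in XX-type, Kctd14-positive cells that met the Wnt6 rule, with bars for exact Poisson 95% intervals of counting error. Foxl2, Fst, Irx3, Id1 and Gng13 are low at E11.5 and higher at E12.5 (middle), and Gadd45g, Nr0b1, Wt1, Lhx9, Hmga2 and Top2a are higher at E11.5 than at E12.5 (right).

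The age filter required Wnt6 and Kctd14, so their presence at every age is set by it, and the level of Kctd14 is a description. Kctd14 was 3375 CPM at E11.5, 2383 CPM at E12.5 and between 1450 and 2011 CPM at every later age. Runx1 stayed between 121 and 230.2 CPM at all 7 ages, with 133 CPM at E11.5. Kitl was lowest at E11.5 (232 CPM), with 237 CPM at P5, and highest at E16.5 (1203 CPM). Wnt4 was 280 CPM at E11.5, 491 CPM at E16.5 and 57.6 CPM at P5.

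From E11.5 to E12.5, 1234 of 10566 genes (11.7%) were at least 2-fold higher in the XX-type Kctd14-positive cells and 1178 (11.1%) at least 2-fold lower, with a median ratio of 0.935. Of 16 pregranulosa genes with enough counts, 9 were higher and 1, Msx1, lower, with a median ratio of 4.47 and a sum of 3582 CPM at E12.5 against 1050 CPM at E11.5. Fst was 885 CPM against 75.6 CPM, a ratio of 11.7 (9.05 to 15.4), and Irx3, a homeobox gene of granulosa cells, 246 CPM against 13.0 CPM. Gng13, a G protein subunit, was 277 CPM against 27.4 CPM. Foxl2, the ovarian transcription factor, was 71.9 CPM against 11.7 CPM and reached 365 CPM at P5. Id1, a BMP target, was 615 CPM against 127 CPM. Other leading genes were Dcaf12l1, Ccdc182, Prcd, Pam and Egfl6, the last with 1 UMI at E11.5.

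On the lower side at E12.5 were AW551984 (24.9 CPM against 271 CPM), Hmga2, a chromatin protein of undifferentiated cells (125 CPM against 633 CPM), and the pancreatic lipase genes Pnlip (27.5 CPM against 187 CPM) and Pnliprp2 (12.4 CPM against 128 CPM). Pclaf and Rrm2, both used in DNA synthesis, were 36.6 CPM against 317 CPM and 15.6 CPM against 120.0 CPM. Nup62cl, Gpc3, Cd24a and Cbfb, the partner of Runx1, completed the set, with Cbfb at 34.2 CPM against 199.6 CPM. Of 27 G2 and M phase genes none was at least 2-fold higher and 19 at least 2-fold lower, against 11.7% and 11.1% of all genes, with a summed ratio of 0.368 (0.342 to 0.396). For S phase genes the ratio was 0.573 (0.543 to 0.605). Cdkn1b was 218 CPM against 53.5 CPM and Cdkn1c was 2.60 times as high (2.43 to 2.78). Gadd45g was 228 CPM against 704 CPM, Nr0b1 45.1 CPM against 124 CPM, Wt1 332 CPM against 720 CPM and Dmrt1 8.51 CPM against 58.7 CPM. Cyp11a1 was 9.33 CPM against 73.0 CPM and at most 3.94 CPM from E14.5 onwards. Free haemoglobin RNA also differed, at 4186 CPM against 935 CPM, and its part in these ratios was not tested.

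With all rule cells in place of the XX-type Kctd14-positive ones, 842 of 10680 genes (7.88%) were at least 2-fold higher at E12.5 and 842 (7.88%) at least 2-fold lower. Amh, Ptgds and Klf7 then entered the 10 highest genes, and Cxcl14, Acta2 and Ccnb1 the 10 lowest. Fst and Irx3 were among the 10 highest in both rankings. Akr1cl, among the leading genes of the E11.5 cells, was 734 CPM at E11.5 and 271 CPM at E14.5 before standing at 2033 CPM at P5 in the XX-type Kctd14-positive cells, and Lgals7 was 527 CPM at E11.5 and 1990 CPM at E12.5.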

How the data were processed

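Gene by cell matrices of UMI counts from 7 libraries were deposited by the authors, who made them with Cell Ranger 3.1.0 against the 10x mm10 reference, with default settings. The counts were used unnormalised. Cells with at least 1000 genes were kept, doublets included. Summed UMIs were expressed as CPM with exact Poisson intervals, shares with exact binomial (Clopper-Pearson) intervals and ratios with exact conditional intervals (95%), computed with scipy 1.17.1, pandas 2.3.3 and numpy 2.4.6 under Python 3.11.15 (Scrublet from scanpy 1.11.5). The script was tested on simulated counts. A gene entered a comparison with at least 20 UMIs over both groups and 5 CPM in 1 of them, and 2-fold is a ratio of 2 or 0.5. Named genes were the 4 markers, list members, and the 25 highest and 15 lowest (10 and 10 in other comparisons) by ratio of CPM plus 20, without rule, predicted, mitochondrial, ribosomal and haemoglobin genes. The same ranking was added for Kctd14-positive cells; genes of Kctd14-low cells and single low-count genes were chosen after their values were seen. Members and lists were chosen with earlier results of these data known. Gene positions are from GENCODE vM21 and promoters from RefSeq. The E11.5 library held 93067485 UMIs, of which the Wnt6 cells had 2150462. Alternatives changed the Wnt6 minimum, each condition of the rule, depth, doublets and filters. Some named genes are not reported here.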

Additional observations from a re-analysis of the deposited data

How the results depend on the processing

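Of 96 values recomputed under other settings, 56 stayed within their error or within 1.5 times. Each comparison rests on 1 library per age, so intervals cover counting error, and levels near 20 UMIs are imprecise. No paired analysis was possible because each age had 1 library and no replicate numbers. The share of Wnt6 cells was 4.32% with a minimum of 1 Wnt6 UMI, 1.64% with 3, 1.04% with 5, 2.87% without the Upk3b condition, 1.75% after thinning to 5000 UMIs, and 1.92% both without cells bearing Pax2, Pax8 or Lhx1 and for Kctd14-positive cells only (a setting chosen after seeing the data). In the same order the G2 and M phase ratio was 0.566, 0.396, 0.379, 0.567, 0.329, 0.435 and 0.437, and it was 0.394 without the top 5% of Scrublet scores, 0.449 without haemoglobin and 0.436 as a mean over cells. The XY-type share was 50.7% with a minimum of 5 Wnt6 UMIs and 34.3% with sex called from 2 UMIs. Genes at least 2-fold higher numbered 2634 with a filter of 5 UMIs and 587 with 50 UMIs and 20 CPM, and genes at least 2-fold lower 4916 and 422, as well as 536 with 1 Wnt6 UMI and 1645 after thinning. Genes lower in XY-type cells numbered 182 among Kctd14-positive cells. With 3 Wnt6 UMIs the shares at the later ages were 26.3, 23.4, 30.7, 24.2, 16.3 and 16.8%, and after thinning 23.0, 28.7, 25.4, 28.8, 17.7 and 20.1%. For 49 named genes, 686 ratios were recomputed under other settings. Of these, 480 stayed within the interval of the main setting, 205 moved outside it and 1 reversed. The reversed gene was Cxcl14 with Kctd14-positive cells only (ratio 0.0848). Itm2a was 0.515 without the Upk3b condition, and Mt1 and Hemgn were 0.705 and 0.584 after thinning. These 3 genes no longer passed 2-fold there, and the cause was not tested.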

Other observations

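The 42 cells that met the Wnt6 minimum but carried Upk3b (1 more was set aside with germ cell genes) had levels of supporting cell genes between those of the Kctd14-positive Wnt6 cells and those of the 607 epithelial cells, which had at least 2 Upk3b UMIs and included 27 of the 42. Kctd14 was 1135 CPM in them (1056 to 1218), against 4133 CPM and 63.1 CPM. Amhr2 was 109 CPM against 277 CPM and 30.1 CPM, and Nr5a1 29.5 CPM against 89.8 CPM and 7.60 CPM. Upk3b itself was 199 CPM, against 326 CPM in the epithelial cells, which were chosen by it, and Krt19, an epithelial keratin, was 125 CPM against 91.8 CPM. Their G2 and M phase genes summed to 2762 CPM, with a median of 980 CPM per cell, and 19 of them were XY-type and 15 XX-type. Their median depth of 13487 UMIs exceeded the 11304 UMIs of the Kctd14-positive cells and the 12246 UMIs of the epithelial cells, and the part of doublets was not tested.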
